A study of Rattus norvegicus with 12 samples.

Results

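The genes described here are 10 transcriptional targets of p53: Cdkn1a, Mdm2, Ccng1, Plk2, Bax, Bbc3, Phlda3, Tp53inp1, Btg2 and Sesn1. They were chosen by symbol from the 32623 gene rows of the count files, and for a repeated symbol the row with the highest mean count was kept. Of the 10, 9 had a row, and all 9 were among the 13539 genes that passed the filter on low counts. Bbc3 was not analysed here. p53 is a transcription factor that is stabilised after DNA damage and other stress, and it activates genes that halt the cell cycle, repair DNA, lower oxidative stress or start cell death. Mdm2, one of its targets, marks p53 for degradation and so closes a feedback loop. In the fibrotic liver, p53 and its target p21 are known for the growth arrest and senescence of activated stellate cells, while in the macrophages that reside in liver the same genes are part of the stress response.

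The study measured polyadenylated RNA in primary rat cells labelled as hepatic stellate cells (HSC), the pericytes of the liver sinusoid that make scar collagen when activated. All the cells were taken, by gradient centrifugation, from rats in which inhaled CCl4 (carbon tetrachloride) had caused cirrhosis, so the control cells too come from diseased liver. For 24 h they shared a well, through a Transwell membrane that passes soluble products but not cells, with 15000 viable cells of human amnion, either epithelial (hAEC) or mesenchymal stromal (hAMSC), or were given vehicle (Veh in the labels). Each of the 3 groups had 4 libraries, named by the numbers in the labels: vehicle 17 to 20, hAEC 3, 4, 11 and 12, and hAMSC 7, 8, 15 and 16. Whether libraries of one group stem from different animals or culture wells is not in the labels. The p-values therefore reflect library-to-library spread alone, and that spread may be technical.

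Total counts ran from 27382724 to 34922211 per library. The libraries fell into 2 sets of 6 that the labels do not name and that cross the groups: the lower-numbered set holds libraries 3, 4, 7, 8, 17 and 18, and the higher-numbered set holds 11, 12, 15, 16, 19 and 20. The spread between libraries within a group, as the biological coefficient of variation, was 38.9% with the group alone in the model and 9.91% with the set as a further term, so treatments are compared with the set in the model. Levels are given in CPM, the count relative to the library's TMM-scaled total, which serves to compare libraries for a gene but not genes with each other. The labelled cell type was checked against its markers. The 10 stellate and myofibroblast markers summed to 65.3 to 105 CPM in the lower-numbered set and 25.2 to 30.2 CPM in the higher-numbered set, and Reln was the largest of them in every library. Lrat, a defining gene of quiescent stellate cells, was between 0 and 0.371 CPM, and Acta2, the myofibroblast actin, between 0.802 and 3.0 CPM. The 16 macrophage markers with a row summed to 28420 to 31090 CPM in the lower-numbered set and 54480 to 57280 CPM in the higher-numbered set. Gpnmb was the largest of them in every library, at 14013 to 15955 and 24427 to 26691 CPM. Cd68 was at 1525 to 1656 and 1638 to 1681 CPM. The 8 endothelial markers summed to 335 to 423 and 76.3 to 124 CPM. The data therefore go against the label, and the libraries are called by it only as the submitters' name. In bulk RNA such as this, fewer cells of a type and less RNA per cell cannot be told apart.

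Promoter windows, from 250 bases before to 50 bases after the annotated start, were found in the RefSeq table (build GRCr8) for 7 of the 10 genes, which were Cdkn1a, Mdm2, Ccng1, Plk2, Phlda3, Btg2 and Sesn1. The 4 windows printed here belong to the members that differed most between libraries or between treatments and that hold one of the motifs searched. Letters in capitals mark the match, sequences run 5′ to 3′ on the gene's strand, and the coordinates are of GRCr8.
Cdkn1a chr20:7150682-7150981, + strand: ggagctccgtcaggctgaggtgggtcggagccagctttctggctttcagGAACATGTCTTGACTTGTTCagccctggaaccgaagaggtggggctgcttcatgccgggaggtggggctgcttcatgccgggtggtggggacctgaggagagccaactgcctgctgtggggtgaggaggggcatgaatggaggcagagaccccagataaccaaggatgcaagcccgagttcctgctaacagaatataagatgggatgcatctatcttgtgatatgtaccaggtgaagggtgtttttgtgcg
Plk2 chr2:43702286-43702585, + strand: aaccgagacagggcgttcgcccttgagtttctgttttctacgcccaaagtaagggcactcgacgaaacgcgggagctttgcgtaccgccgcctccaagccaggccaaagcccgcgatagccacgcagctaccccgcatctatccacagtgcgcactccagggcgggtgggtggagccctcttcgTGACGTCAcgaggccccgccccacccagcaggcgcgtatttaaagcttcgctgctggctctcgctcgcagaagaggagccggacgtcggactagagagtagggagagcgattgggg
Btg2 chr13:48087641-48087940, - strand: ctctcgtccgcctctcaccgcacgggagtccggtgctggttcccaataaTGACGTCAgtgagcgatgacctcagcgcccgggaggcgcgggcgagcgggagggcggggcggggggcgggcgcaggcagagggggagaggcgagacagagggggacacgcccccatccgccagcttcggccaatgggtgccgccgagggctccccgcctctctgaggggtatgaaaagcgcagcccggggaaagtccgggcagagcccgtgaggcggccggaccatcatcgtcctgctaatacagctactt
Sesn1 chr20:46948469-46948768, + strand: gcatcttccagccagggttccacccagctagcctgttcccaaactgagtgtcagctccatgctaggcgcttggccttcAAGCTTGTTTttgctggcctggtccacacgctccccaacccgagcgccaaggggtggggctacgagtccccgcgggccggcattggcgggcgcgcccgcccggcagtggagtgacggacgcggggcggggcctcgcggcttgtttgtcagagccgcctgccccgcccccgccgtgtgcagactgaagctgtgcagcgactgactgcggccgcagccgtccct

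In Cdkn1a the capitals are a 20-base match to the p53 consensus (a pair of adjoining 10-base elements, with at most 1 mismatch in all and none in the core of each element), from -201 to -182 relative to the start. This match is rare: 12 of 33469 windows of the same length in the rat table hold one, or 0.0359%. A single 10-base p53 element with no mismatch lies within the Cdkn1a match, in Sesn1 from -172 to -163, and in Ccng1 from -232 to -223. That shorter element is found in 7.98% of all windows. The capitals in Plk2, from -66 to -59, and in Btg2, from -201 to -194, are the cAMP response element TGACGTCA, the site of CREB and ATF factors, which 1.83% of all windows hold. The AP-1 site TGACTCA, searched like the others on both strands, was in no member's window and in 4.63% of all windows. Apart from the shorter p53 element inside the longer one, the matches do not overlap. Of 38 other p53 targets with a window, 7 held the 10-base element, 0 the 20-base site and 2 the cAMP response element. These matches describe the letters of the windows, and the motifs were picked with the sequences in view.

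The p53 targets differed more between the library sets than between treatments. In 7 of the 9 genes all 6 libraries of the lower-numbered set were above all 6 of the higher-numbered set, and in the other two, Sesn1 and Tp53inp1, all were below. For all 13539 genes tested the shares were 28.0% for the lower-numbered set wholly above and 26.9% for the higher-numbered set wholly above, so 54.9% of genes parted the sets in one direction or the other. The sets were known from earlier results of these data, so their levels are described with no test. Which cells or handling the sets differ in was not tested. The macrophage sum was higher and the endothelial sum lower in the higher-numbered set. Of the macrophage list, however, Cd14 and Marco were wholly higher in the lower-numbered set, and Cd68, Cd163 and Clec4f overlapped. The hepatocyte sum, mostly Tf, was 519 to 651 CPM in the lower-numbered and 672 to 819 CPM in the higher-numbered set. In the same order, the epithelial sum was 17.45 to 20.32 and 22.92 to 32.77 CPM. The lymphocyte sum was 5.39 to 7.84 and 2.44 to 3.96 CPM, and the neutrophil sum 1.015 to 1.691 and 10.9 to 14.4 CPM. The stellate sum was lower in the higher-numbered set through Reln, and the other 9 genes of that list summed to 10.5 to 15.3 CPM in the lower-numbered set and 14.3 to 20.1 CPM in the higher-numbered set. The part of these sums in the levels below was not tested.

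**Figure D1:**
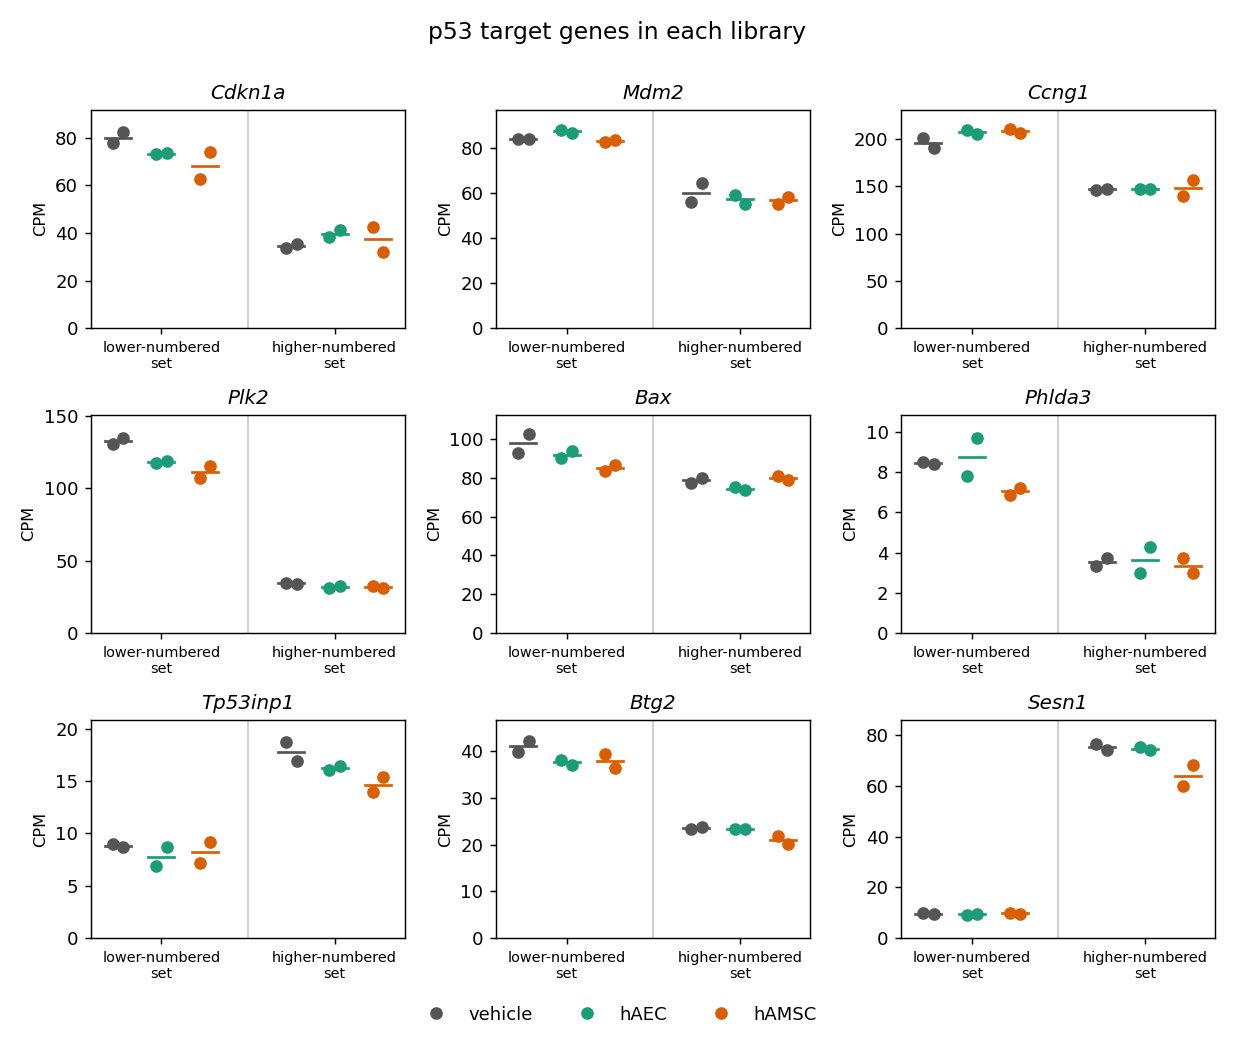
Level of each measured p53 target in CPM on a linear axis from 0, with 1 point per library and a bar at the mean of the 2 libraries of a treatment within a set. Cdkn1a, Plk2, Btg2 and 4 other genes are higher in the lower-numbered set, Sesn1 and Tp53inp1 are higher in the higher-numbered set, and the treatments within a set lie close together.

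Among the genes that act back on p53, Mdm2 ranged from 82.8 to 88.2 CPM (median 84.0) in the lower-numbered set and from 55.0 to 64.2 CPM (median 57.1) in the higher-numbered set. Ccng1, which encodes cyclin G1, a partner of the phosphatase that regulates Mdm2, ranged from 191 to 210 CPM (median 206) and from 140 to 157 CPM (median 147). Both feedback genes were thus moderately higher in the lower-numbered set, with ratios of medians of 1.47 and 1.40. Mdm4, the other main inhibitor of p53, overlapped between the sets, at 26.5 to 32.4 and 25.7 to 31.2 CPM. Ppm1d, a phosphatase that switches off the damage response and is also a p53 target, was at 15.1 to 15.7 and 15.9 to 19.7 CPM, slightly higher in the higher-numbered set.

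The arrest genes showed larger steps. Cdkn1a encodes p21, the inhibitor of cyclin-dependent kinases that carries out p53's arrest in G1. Its level was 77.8 and 82.6 CPM in vehicle, 73.3 and 73.5 CPM with hAEC and 62.6 and 74.0 CPM with hAMSC in the lower-numbered set. In the higher-numbered set it was 33.7 and 35.3 CPM in vehicle, 38.2 and 41.1 CPM with hAEC and 42.7 and 31.9 CPM with hAMSC. The ratio of set medians was 2.01, and the sets were far from overlapping. Plk2, a polo-like kinase induced by p53 and by growth factors, stood at 131 and 135 CPM in vehicle, 118 and 119 CPM with hAEC and 107 and 116 CPM with hAMSC in the lower-numbered set. The higher-numbered set had 34.8 and 33.9, 31.1 and 32.5, and 32.5 and 31.3 CPM in the same order of treatments. Its ratio of 3.64 was the largest of the 7 members that were higher in the lower-numbered set. Btg2, an antiproliferative cofactor of mRNA deadenylation, was at 39.9 and 42.2 CPM in vehicle, 38.2 and 37.1 CPM with hAEC and 39.5 and 36.5 CPM with hAMSC in the lower-numbered set. Its values in the other set were 23.3 and 23.7, 23.3 and 23.4, and 21.9 and 20.1 CPM, for a ratio of 1.66.

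Bax, the pore-forming member of the Bcl-2 family that permeabilises mitochondria, differed least. It was at 92.8 and 103 CPM in vehicle, 90.1 and 93.9 CPM with hAEC and 83.4 and 86.5 CPM with hAMSC in the lower-numbered set, and at 77.5 and 80.0, 75.1 and 73.6, and 81.1 and 78.8 CPM in the higher-numbered set. The sets did not overlap, but by a small margin, and the ratio of medians was 1.17. The expected counts of Bax were whole numbers in 2 of 12 libraries, so some of its reads were shared with other genes, while those of the other 8 members were whole in all 12. Phlda3, which p53 induces to hold back Akt survival signalling, was the lowest in count, with 6.88 to 9.71 CPM (median 8.12) against 2.97 to 4.26 CPM (median 3.52), a ratio of 2.30.

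The remaining members, Sesn1 and Tp53inp1, went the opposite way. Sesn1 encodes sestrin 1, which lowers reactive oxygen and restrains mTORC1. It was at 9.93 and 9.44 CPM in vehicle, 9.34 and 9.65 CPM with hAEC and 9.80 and 9.72 CPM with hAMSC in the lower-numbered set, a range narrower than 1 CPM. In the higher-numbered set it was at 76.4 and 74.1, 75.4 and 74.2, and 60.2 and 68.1 CPM, so the median was 7.66 times higher there. Tp53inp1, a stress protein of autophagy and p53 activation, was at 8.95 and 8.67 CPM in vehicle, 6.91 and 8.67 CPM with hAEC and 7.22 and 9.20 CPM with hAMSC in the lower-numbered set. Its values in the higher-numbered set were 18.7 and 16.9, 16.04 and 16.5, and 13.9 and 15.4 CPM, a ratio of 1.87 in favour of that set. Sesn2, a relative of Sesn1 outside the members, lay the other way. It was at 92.1 to 109 CPM in the lower-numbered set and 56.2 to 72.6 CPM in the higher-numbered set.

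**Figure D2:**
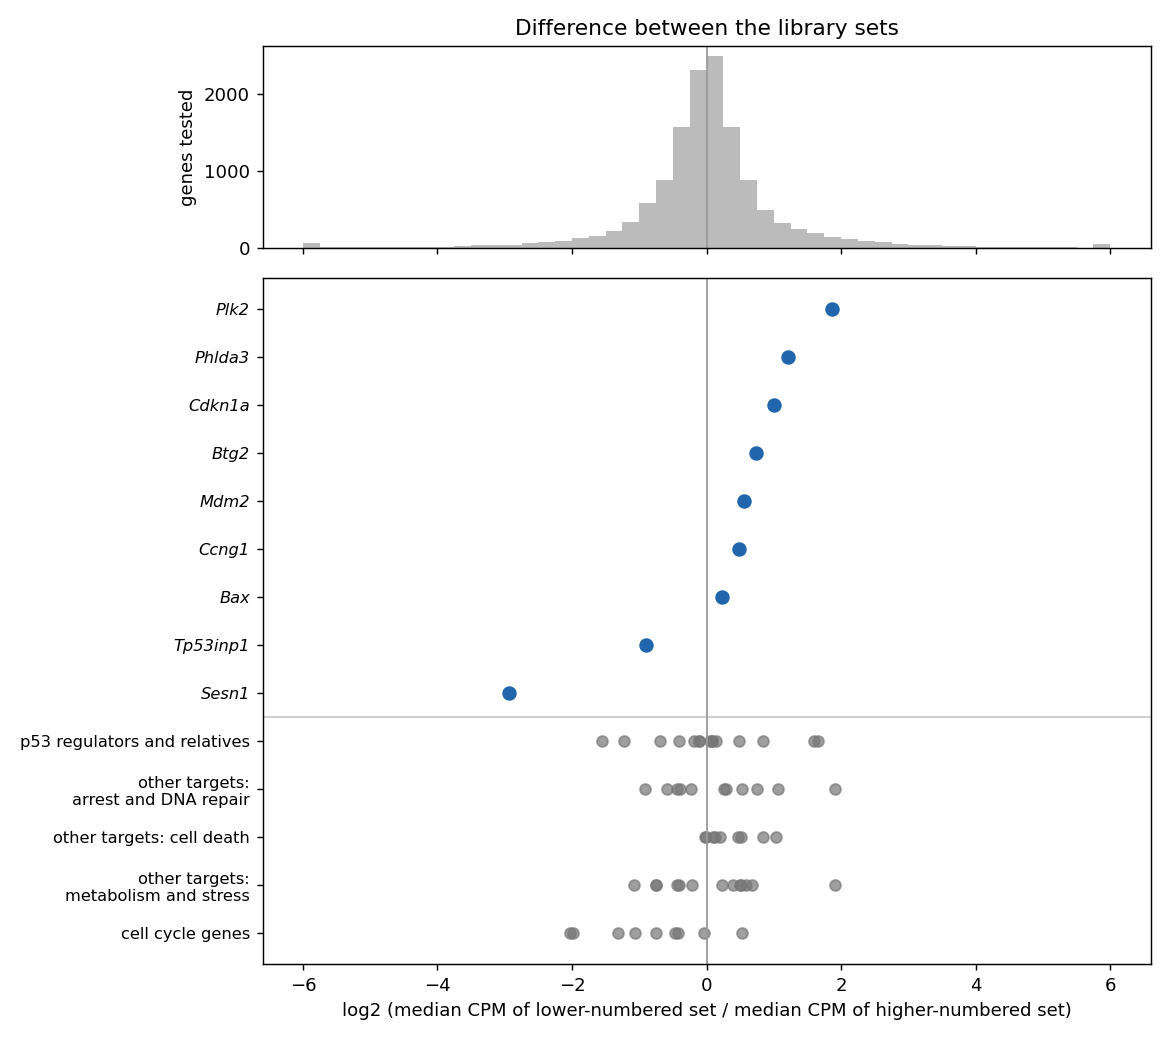
Difference between the library sets on a log2 scale, as the ratio of median CPM, with the lower-numbered set in the numerator. The upper panel is the histogram of the 13539 genes tested (values beyond 6 are drawn in the last bar on each side), and the lower panel gives each member in blue and, in grey, the genes of 5 further lists with a mean of at least 5 CPM. Plk2 lies at 1.87 and Sesn1 at -2.94.

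Other p53 targets lay on both sides. Of 42 other p53 targets tested, 21 were wholly higher in the lower-numbered set, 10 wholly higher in the higher-numbered set, and 11 overlapped, beside 28.0% and 26.9% of all genes tested. By role, the 13 arrest and repair genes gave 7 and 4, the 13 cell death genes 6 and 0, and the 16 genes of metabolism, stress and secretion 8 and 6. The 2 largest differences in each direction in the wider p53 lists, among genes with a mean of at least 5 CPM, were those of Gadd45a, Dram1, Atm and Chek2. Gadd45a, a stress gene of arrest and repair, was at 27.7 to 32.0 CPM in the lower-numbered set and 6.72 to 9.17 CPM in the higher-numbered set. Dram1, a lysosomal protein of autophagy, was at 162 to 184 and 44.7 to 48.4 CPM. Atm and Chek2, kinases that signal DNA damage to p53, lay the other way: Atm was at 53.7 to 62.5 CPM in the lower-numbered set and 156 to 179 CPM in the higher-numbered set, and Chek2 at 5.74 to 7.24 and 13.4 to 16.6 CPM. Atr, another kinase of this signal, had 22.6 to 25.7 CPM in the lower-numbered set and 15.8 to 19.6 CPM in the higher-numbered set. Of the 16 tested genes in the list of p53's regulators and relatives, 5 (31.2%) were wholly higher in the lower-numbered set and 6 (37.5%) in the higher-numbered set, near the 28.0% and 26.9% of all genes. Fas, the death receptor, was at 10.4 to 13.5 CPM in the lower-numbered set and 3.96 to 7.03 CPM in the higher-numbered set. Pmaip1, which encodes the BH3-only protein Noxa, was at 18.4 to 24.2 and 13.8 to 19.2 CPM, and Zmat3, an RNA-binding p53 target, at 5.43 to 6.56 and 4.48 to 5.85 CPM, both overlapping. Gdf15, a secreted stress cytokine, also overlapped, at 26.5 to 34.3 and 27.1 to 42.4 CPM.

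Most of the listed genes of S phase and mitosis, which p53 is known to lower through p21 and the DREAM repressor complex, were higher in the higher-numbered set. In 16 of the 20 tested, every library of the higher-numbered set was above every library of the lower-numbered set, and in 0 the reverse, against the 26.9% and 28.0% of all genes given above. The list's median log2 difference (lower-numbered minus higher-numbered set) was -1.05, beside 0.0090 over all genes tested. Mki67, the proliferation marker, was at 10 to 13.4 CPM in the lower-numbered set and 43.9 to 62.1 CPM in the higher-numbered set. Top2a, the topoisomerase of dividing cells, was at 2.52 to 4.79 and 10.9 to 16.04 CPM. The marker sums differed between the sets too, and their part in these levels was not tested.

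In co-culture with either human cell type, the fitted levels of the p53 targets lay close to vehicle. None of the 9 passed the edgeR quasi-likelihood test at a Benjamini-Hochberg adjusted p of 0.05 in any comparison of treatments, while DESeq2 passed 1 (Plk2 with hAMSC) and limma voom 0. Their fitted levels were between 0.900 and 1.03 times vehicle with hAEC and between 0.874 and 1.04 times vehicle with hAMSC. Within a set, the members' means ran from 82.4% of vehicle (Tp53inp1 with hAMSC) to 115% (Cdkn1a with hAEC), both in the higher-numbered set. Both comparisons use the same 4 vehicle libraries. A missed threshold does not show that a co-culture left a member unchanged. The values that come nearest to a change are those of Plk2, which was lower than vehicle in both sets with either cell type.

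With hAEC, no gene passed the threshold (0 of 13539, or 0% by edgeR, with 759, or 5.61%, at an unadjusted p under 0.05; DESeq2 called 2 and limma voom 0). Of the 9 members, 1 had an unadjusted p under 0.05, 6 had a log2 fold change below 0 and 3 above, where 51.5% of all genes were below, and the members' median was -0.02 beside -0.0032 for all genes tested. Plk2 had the smallest p of the members, with a log2 fold change of -0.14 (SE 0.04, unadjusted p = 0.00439, adjusted p = 0.86, edgeR quasi-likelihood test). Both hAEC libraries were under both vehicle libraries in each set, which held for Plk2 alone of the members and for 3.60% of all genes, and 0 members were above vehicle in this way (4.39% of all genes). Tp53inp1 was at -0.15 (SE 0.09), Bax at -0.09 (SE 0.05) and Btg2 at -0.07 (SE 0.05). Cdkn1a (0.03, SE 0.10), Mdm2 (-0.0048, SE 0.05), Sesn1 (-0.02, SE 0.06), Ccng1 (0.04, SE 0.04) and Phlda3 (0.05, SE 0.13) were within about 1 SE of vehicle. For Cdkn1a the treatment went opposite ways in the sets: both hAEC libraries were under both vehicle libraries in the lower-numbered set and above them in the higher-numbered set. The difference between its effects in the sets was 0.33 (SE 0.17) on the log2 scale and did not pass (adjusted p = 0.937, edgeR quasi-likelihood test). No gene passed that test of the sets' difference for hAEC (0 of 13539, or 0%, with 731, or 5.40%, at an unadjusted p under 0.05; DESeq2 called 24 and limma voom 0).

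With hAMSC, 32 genes passed (0.236% of those tested), 21 higher and 11 lower than vehicle, and 0 of the 9 members were among them. At an unadjusted p under 0.05 there were 2 members, where 9.68% of all genes were. Of the members 8 were below 0 and 1 above, where 51.1% of all genes were below, with a median of -0.13 beside -0.0027 for all genes tested. Plk2 again had the smallest p: its log2 fold change was -0.18 (SE 0.04, unadjusted p = 0.000504, adjusted p = 0.116, edgeR quasi-likelihood test). DESeq2 gave Plk2 an adjusted p of 0.00932, and without the library hAMSC 15 edgeR gave 0.0326. That was the lowest of 12 edgeR fits with 1 library left out, in which the adjusted p rose to 0.3. The log2 fold change of Plk2 in those fits ran from -0.21 to -0.15. In CPM, Plk2 averaged 84.0% of the vehicle mean in the lower-numbered set and 92.9% in the higher-numbered set. Btg2 was also under vehicle in every hAMSC library of both sets, at 92.6% and 89.4% of the vehicle mean, and its log2 fold change was -0.13 (SE 0.05, adjusted p = 0.437, edgeR). These 2 members are to be read beside the 4.49% of all genes that were lower in both sets in this way, and 0 members were higher in both (3.94% of all genes). Among the members with a promoter window, Plk2 and Btg2 are the 2 that hold the cAMP response element. Bax and Tp53inp1 had no window, and the motifs were picked with the sequences in view. A link between the element and these values was not tested.

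With hAMSC, the values of Sesn1, Tp53inp1 and Bax are given by set, and the test of a difference between the sets follows them. In the higher-numbered set Sesn1 averaged 85.3% of vehicle and Tp53inp1 82.4%, with both libraries under both vehicle libraries, while in the lower-numbered set they averaged 101% and 93.2% and overlapped with vehicle or lay within its range. Over both sets the log2 fold change was -0.13 for Sesn1 (SE 0.06, adjusted p = 0.521; -0.06 without hAMSC 15) and -0.19 for Tp53inp1 (SE 0.09, adjusted p = 0.53), both by the edgeR quasi-likelihood test. Bax was at 86.9% of vehicle in the lower-numbered set and 102% in the higher-numbered set, and its overall value was -0.09 (SE 0.05). Phlda3 was at -0.17 (SE 0.13), Cdkn1a at -0.07 (SE 0.10), Mdm2 at -0.05 (SE 0.05) and Ccng1 at 0.05 (SE 0.04). The difference of the hAMSC effect between sets (higher-numbered minus lower-numbered) was tested over all genes, and 27 passed (0.199%). No member was among them: Bax was at 0.22 (SE 0.08, adjusted p = 0.381), Sesn1 at -0.24 (SE 0.10, adjusted p = 0.446), Tp53inp1 at -0.18 (SE 0.19, adjusted p = 0.795), Plk2 at 0.15 (SE 0.08, adjusted p = 0.576) and Cdkn1a at 0.34 (SE 0.17, adjusted p = 0.55), all by edgeR. The value of Cdkn1a moved with single libraries, to 0.12 (adjusted p = 0.899) without hAMSC 15, 0.23 (adjusted p = 0.911) without hAMSC 7 and 0.54 (adjusted p = 0.0447) without hAMSC 16, all by edgeR.

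**Figure D3:**
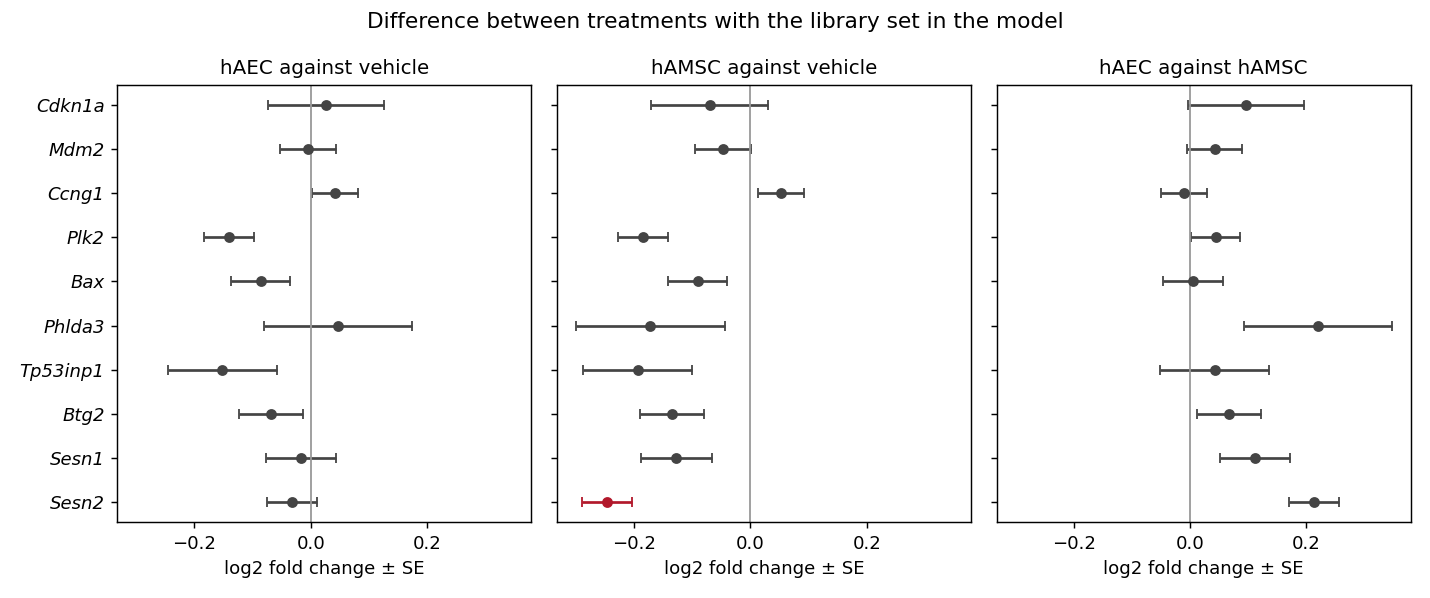
Log2 fold change of each measured p53 target and of Sesn2, with the standard error as the bar, from the edgeR model with library set and treatment over all 12 libraries. Red marks an adjusted p under 0.05, which only Sesn2 reached, with hAMSC against vehicle; Plk2 is the member with the smallest p in both comparisons with vehicle.

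Between the co-cultures, 8 of the 9 members were higher with hAEC than with hAMSC and 1 lower, where 50.0% of all genes were higher. This comparison uses the same hAEC and hAMSC libraries as the comparisons with vehicle, so its counts are not independent of theirs. By edgeR 0 members passed, and 0 had an unadjusted p under 0.05 (6.37% of all genes). Genes that passed numbered 3 (0.0222% of those tested). No member was higher in every hAEC library of both sets (3.69% of all genes) or lower in every one (3.83%). The largest of the members' log2 differences were those of Phlda3 at 0.22 (SE 0.13), Sesn1 at 0.11 (SE 0.06) and Cdkn1a at 0.10 (SE 0.10), with adjusted p from 0.856 to 0.996 over the 9 members by the edgeR quasi-likelihood test. An interval of 2 SE around the difference included 0 for every member. It ran from -0.04 to 0.47 for Phlda3, from -0.01 to 0.23 for Sesn1 and from -0.10 to 0.30 for Cdkn1a. For Plk2 it ran from -0.04 to 0.13 and for Mdm2 from -0.05 to 0.14. That a member missed the threshold does not show that the 2 cell types act alike on it.

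Of the wider p53 lists, 1 gene passed in any comparison with vehicle. Sesn2, which encodes sestrin 2, a relative of Sesn1 that is also induced by the amino acid and unfolded protein responses, was lower with hAMSC in both sets. It was at 109 and 109 CPM in vehicle, 99.9 and 105 CPM with hAEC and 93.4 and 92.1 CPM with hAMSC in the lower-numbered set. The higher-numbered set gave 67.4 and 71.7, 68.9 and 72.6, and 59.9 and 56.2 CPM. The hAMSC libraries were thus the lowest of each set, at 85.1% and 83.4% of the vehicle mean, and did not overlap with either other treatment. The log2 fold change against vehicle was -0.25 (SE 0.04, adjusted p = 0.0277, edgeR quasi-likelihood, Benjamini-Hochberg), and the difference of hAEC from hAMSC was 0.21 (SE 0.04, adjusted p = 0.106). With hAEC against vehicle Sesn2 was at -0.03 (SE 0.04). The call with hAMSC depends on single libraries: edgeR's adjusted p rose to 0.0779 without vehicle 17, 0.0996 without vehicle 18, 0.11 without vehicle 20, 0.1 without hAMSC 8 and 0.0999 without hAMSC 16, while the fold change stayed between -0.27 and -0.22 in these 12 fits with 1 library left out.

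**Figure D4:**
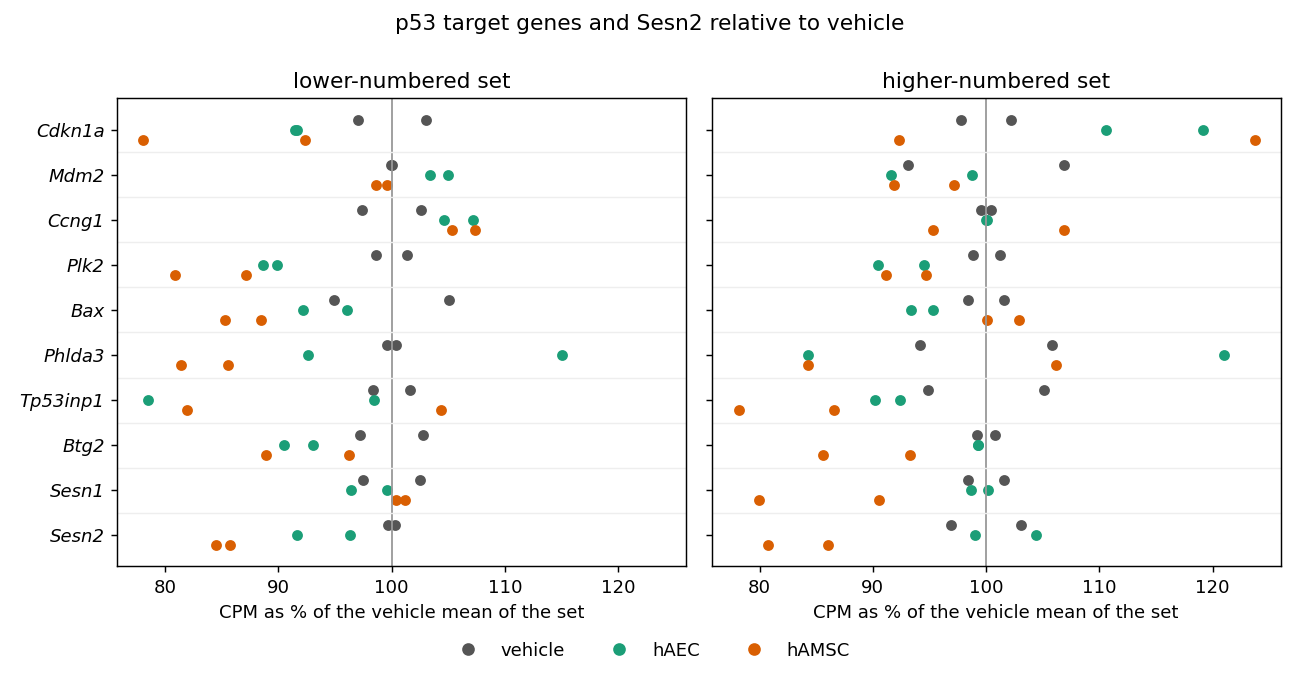
Each library's CPM as a percentage of the mean of the 2 vehicle libraries of its own set, for the 9 measured p53 targets and Sesn2, with 1 point per library. Plk2 and Sesn2 with hAMSC lie to the left of both vehicle points in both sets, while Cdkn1a with hAEC lies to the left in the lower-numbered set and to the right in the higher-numbered set.

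Regulators of p53 did not pass in either comparison with vehicle. Mdm4 was at 0.02 with hAEC and 0.05 with hAMSC on the log2 scale (SE 0.07 each), and Ppm1d at 0.09 and 0.07 (SE 0.07 each). Among the 16 genes of the list of p53's regulators and relatives 0 passed. In either comparison 0 had an unadjusted p under 0.05, where 5.61% of all genes had with hAEC and 9.68% with hAMSC. Below 0 were 8 with hAEC and 4 with hAMSC, where 51.5% and 51.1% of all genes were. Its members of smallest p with hAEC were Atr, the replication stress kinase (0.10, SE 0.06), and Kat5, the acetyltransferase Tip60 (-0.09, SE 0.05). With hAMSC they were Hipk2, a kinase that phosphorylates p53 (0.12, SE 0.07), and Tp53bp2 (-0.23, SE 0.12). In the 13 other arrest and repair targets 0 passed, and 0 had an unadjusted p under 0.05, beside the same 5.61% and 9.68% of all genes. The medians were -7e-04 with hAEC and -0.02 with hAMSC. Gadd45a was at -0.06 and -0.0065 (SE 0.08 each). The smallest p belonged to Btg1 (0.12, SE 0.06) and Aen (-0.10, SE 0.07) with hAEC and to Rrm2b (0.11, SE 0.09) and Plk3 (-0.11, SE 0.06) with hAMSC.

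Of the 13 other cell death targets 0 passed as well. At an unadjusted p under 0.05 there were 0 with hAEC and 2 with hAMSC, where 5.61% and 9.68% of all genes were. Pmaip1 was at 0.08 (SE 0.09) with hAEC and 0.17 (SE 0.09) with hAMSC, Fas at 0.18 and -0.16 (SE 0.14 each), and Zmat3 at 0.20 and 0.10 (SE 0.10 each). The cell death target with the smallest p was Tp53i11, at 0.17 with hAMSC (SE 0.04, adjusted p = 0.123) and at -0.18 for hAEC against hAMSC (SE 0.04, adjusted p = 0.143, edgeR). Its levels with hAMSC were 152 and 169 CPM in the lower-numbered set and 177 and 168 CPM in the higher-numbered set, above both vehicle and both hAEC libraries of each set (145 to 153 CPM). Ninj1, the protein of plasma membrane rupture, was at -0.11 with hAMSC (SE 0.04), and Eda2r, a receptor of low count here, at -0.55 with hAEC (SE 0.38). Among the 16 targets of metabolism, stress and secretion Sesn2 was the 1 that passed with hAMSC, where 0.236% of all genes did, and 0 passed with hAEC. An unadjusted p under 0.05 was found for 1 of the 16 with hAEC and 3 with hAMSC, beside the same shares of all genes. Gdf15 was at -0.11 and -0.14 (SE 0.13 each), Pank1, a pantothenate kinase, at 0.39 with hAMSC (SE 0.13), and Tigar and Fdxr at 0.08 (SE 0.06) and -0.23 (SE 0.10) with hAEC.

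The cell cycle genes were more often above than below vehicle, with 13 of 20 above 0 with hAEC and 16 of 20 with hAMSC, where 48.5% and 48.9% of all genes were above. Their medians were 0.11 and 0.13 beside -0.0032 and -0.0027 for all genes tested. By edgeR 0 of the 20 passed in either comparison. At an unadjusted p under 0.05 there were 2 and 3, where 5.61% and 9.68% of all genes were. With hAMSC, in the higher-numbered set 13 of the 20 were wholly above vehicle and 1 wholly below, where the shares of all genes were 18.7% and 18.3%, and in the lower-numbered set 2 were above and 4 below, where they were 21.7% and 22.1%. The difference of the hAMSC effect between sets (higher-numbered minus lower-numbered) was above 0 for 18 of the 20, where 6815 of the 13539 genes tested were. Its median was 0.23 beside 0.0017 over all genes. By edgeR 0 of the 20 passed. An unadjusted p under 0.05 was found for 3 of them, and for 1358 of the 13539 genes tested. Top2a had the smallest p, at 0.37 (SE 0.13) with hAEC and 0.42 (SE 0.13, adjusted p = 0.278, edgeR) with hAMSC, and the largest opposite value was that of Aurka, at -0.17 (SE 0.07) with hAMSC. Immediate early genes are induced by growth factors and stress. Below vehicle were 11 of 15 with hAEC and 10 of 15 with hAMSC, where 51.5% and 51.1% of all genes were. By edgeR 0 passed, and 0 and 4 had an unadjusted p under 0.05, where 5.61% and 9.68% of all genes had. Fosl1, an AP-1 subunit, was the lowest in p, at -0.46 with hAMSC (SE 0.12, adjusted p = 0.147, edgeR). Fos was higher with hAEC than with hAMSC by 0.41 (SE 0.13, adjusted p = 0.465, edgeR). The macrophage sum was similar between treatments within a set, at 28420 to 31090 CPM over the 3 treatments of the lower-numbered set and 54480 to 57280 CPM over those of the higher-numbered set. Of its 16 genes 1 passed with hAMSC (0.236% of all genes did), and 4 had an unadjusted p under 0.05 (9.68% of all genes). The gene that passed was Cd163, the haemoglobin scavenger receptor, at 0.61 (SE 0.09, adjusted p = 0.0277, edgeR). With hAEC 0 passed, and 1 had an unadjusted p under 0.05 (5.61% of all genes). The endothelial sum was 335 to 423 CPM with hAMSC in the lower-numbered set, beside 391 to 408 CPM in vehicle and 345 to 353 CPM with hAEC. In the higher-numbered set it was 109 to 124 CPM with hAMSC, beside 77.9 to 81.3 and 76.3 to 86.1 CPM. The part of this shift in the values with hAMSC was not tested.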

How the data were processed

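Per the labels' protocols, polyadenylated RNA was made into stranded libraries. The deposited values are gene-level expected counts from RSEM. The submitters' processing notes name FastQC, Trim Galore, STAR, RSEM and limma with rn6 and Rnor_6.0; versions, roles and order: not given in the sources used here. RSEM divides reads that fit several genes, and 90.1% of the deposited values, zeros included, were whole.

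Counts were rounded and fitted with edgeR 4.0.16 (R 4.3.3): filterByExpr, TMM, and the robust quasi-likelihood test with library set and group over all 12 libraries, two-sided, Benjamini-Hochberg adjusted over 13539 genes, threshold 0.05. The difference of a treatment effect between sets came from a set by treatment term. CPM use TMM-scaled totals. The libraries of every pair (66 pairs) differed by more than sampling noise (chi-square per degree of freedom of 6.13 or more). Alternatives were other scalings and filters, DESeq2 1.42.0, limma 3.58.1 voom, other models and leaving out each library. The test was tried on simulated counts first, with the same spread for every gene. For hAMSC against vehicle it recovered 14.9% of changes of 0.25 on the log2 scale, 77.6% of 0.5 and 100% of 1. It also called 11 unchanged genes.

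Members, lists, library sets and tests were chosen with earlier results of these data known. The text names all members, Mdm4, Ppm1d, Pmaip1, Fas, Gadd45a, Zmat3, Gdf15 and Sesn2, the genes of further lists that passed or had the smallest p in a direction, and, for the sets, the 2 largest differences in each direction in the wider p53 lists at a mean of at least 5 CPM. Mki67 and the 4 cell cycle genes that overlapped between the sets were named after their values were seen. So were Lrat, Acta2, Reln, Gpnmb, Cd68 and Clec4f among the markers. Cop1, Chek1, Sco2 and Ces2, listed with the wider p53 network, were not analysed here. 1 gene that the rule for named genes lists is not reported here and was left out of the lists.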

Additional observations from a re-analysis of the deposited data

How the results depend on the processing

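No paired analysis was possible because the sample numbers in the labels are not shared between groups. The count of genes that passed with hAMSC against vehicle (32) was 0 with the group alone in the model, 87 within the lower-numbered set, 92 within the higher-numbered set, 89 averaged over the sets, 52 with no filter, 6 with only the 2 groups and 157 by DESeq2. That with hAEC (0) was 1, 5, 7 and 2 within the lower-numbered set, within the higher-numbered set, with only the 2 groups and by DESeq2. That of hAEC against hAMSC (3) was 0 with the group alone, 1 and 61 within the lower-numbered and higher-numbered sets, 74 averaged, 26 with no filter and 79 by DESeq2. The sets' difference for hAEC (0) gave 309 with no filter and 24 by DESeq2, and that for hAMSC (27) gave 533, 102 and, by limma voom, 4. Leaving out 1 library gave 0 to 0 for hAEC, 8 to 156 for hAMSC, 0 to 54 for hAEC against hAMSC, 0 to 8 for the sets' difference with hAEC and 0 to 163 with hAMSC. The cause was not tested.

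Members' log2 fold changes that changed sign had not passed in either form. Against vehicle with hAEC, Cdkn1a was -0.0208 with the group alone and -0.12 within the lower-numbered set. Mdm2 was 0.0062, 0.0637 within that set and 3e-04 by limma voom, and within the higher-numbered set Ccng1 was -0.0011 and Sesn2 0.0227. With hAMSC, Sesn1 was 0.0185 within the lower-numbered set, and Cdkn1a 0.11 and Bax 0.0238 within the higher-numbered set. For hAEC against hAMSC, Tp53inp1 was -0.0759, Btg2 -0.0155 and Sesn1 -0.042 within the lower-numbered set, and Plk2 -0.0103 and Bax -0.11 within the higher-numbered set. Leaving out 1 library also gave both signs for hAEC against vehicle in Cdkn1a (-0.0274 to 0.0861), Mdm2 (-0.0289 to 0.0455), Sesn1 (-0.0395 to 0.0085) and Phlda3 (-0.0361 to 0.1406), for hAMSC against vehicle in Mdm2 (-0.0711 to 0.0036), and for hAEC against hAMSC in Bax (-0.033 to 0.0404), Tp53inp1 (-0.0109 to 0.1355) and Ccng1 (-0.0441 to 0.0163).

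Sesn2 with hAMSC stayed below 0 in every alternative run but did not pass with the group alone (adjusted p = 1), within the lower-numbered set (0.0629) or higher-numbered set (0.176), or with only the 2 groups (0.06), by edgeR. Against hAEC it passed averaged over the sets (0.0293), with no filter (0.0356) and by DESeq2 (0.00301).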
